A study of Mus musculus with 8 samples.

Results

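The genes described are those for the DNA methyltransferases Dnmt1, Dnmt3a, Dnmt3b and Dnmt3l and for their partner Uhrf1, in maps of N6-methyladenosine (m6A), a modified base of messenger RNA. All rows of the deposited control and Dox peak tables that carried the Ensembl identifier of 1 of these 5 genes were taken, with symbols tied to identifiers by gene location and strand on mm10. This gave 20 of 25815 control peaks and 21 of 27612 Dox peaks, on 5 of 13110 identifiers. The cells were mouse embryonic stem cells with a doxycycline (Dox) inducible knockdown of Setd2, whose product trimethylates H3K36, grown without feeder cells as spheres in serum-free 2i medium with LIF (1000 U/ml) and inhibitors of MEK (PD0325901, 1 µM) and of GSK3 (CHIR99021, 3 µM). Control cells carried the same knockdown system and received no Dox, while the treated cells were given 1 µg/ml over 4 days. Dox-treated cells without the knockdown system were not analysed here, so effects of the drug and of the knockdown cannot be told apart. Each condition had 2 m6A antibody (IP) libraries and 2 input libraries, and the authors called 1 list of peaks from all 4 libraries of a condition. No value per library was analysed, so there is no replicate spread and no difference between the conditions was tested. Differences between the lists are described as such, and read depth is unknown.

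DNMT1 copies methylation of cytosines onto newly made DNA, and UHRF1 brings it to hemimethylated sites by binding them and ubiquitylating histone H3. DNMT3A and DNMT3B methylate DNA anew and bind methylated H3K36 through their PWWP domains, and DNMT3L is a cofactor without catalytic activity that stimulates them. In naive stem cells kept in 2i medium DNA methylation is low, and Prdm14 represses Dnmt3b and Dnmt3l. Because SETD2 trimethylates H3K36, and DNMT3A and DNMT3B bind methylated H3K36, these transcripts are of interest in cells with Setd2 knockdown. A peak list shows where antibody-enriched RNA was called and measures neither transcript level nor DNA methylation.

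Setd2, the targeted gene, had 10 control and 6 Dox peaks, from which the extent of knockdown cannot be read. All 7 markers of pluripotent stem cells examined (Pou5f1, Sox2, Nanog, Zfp42, Esrrb, Klf4 and Tfcp2l1) carried peaks in both lists. Of 5 fibroblast markers, Col1a1 and Vim carried peaks in both lists, and no identifier with peaks was assigned to Col1a2, Thy1 or S100a4. The part of other cells in the results was not tested.

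All 5 genes carried m6A peaks in both conditions, as did 79.9% of all identifiers with a peak. Most of their control peaks had a counterpart after knockdown: 18 of 20 overlapped a Dox peak of the same strand by 1 or more exonic nucleotides. The 2 that did not (10%, exact 95% binomial interval 1.23% to 31.7%) both belonged to Dnmt1, and over the whole control list 19.3% of peaks lacked a counterpart. Of the 21 Dox peaks, 6 had no overlapping control peak (28.6%, 11.3% to 52.2%), 5 of them in Dnmt3a and 1 in Dnmt3l, against 29.1% of all Dox peaks. Both shares are thus within counting error of those over all peaks, and the intervals take peaks of 1 transcript as independent. The 6 unmatched Dox peaks were weak. They were 6 of the 10 Dox peaks of these genes with a log10 FDR above -5, a class in which 52.1% of all Dox peaks lacked a counterpart. None of the 4 Dox peaks between -20 and -5 was unmatched, against 20% of all such peaks, and none of the 7 at or below -20, against 2.8%. The 2 control peaks above -5 both had a counterpart, where 40.4% of all such peaks lacked one. The authors' stricter lists, which require a fold of 2 or more and a p no higher than 1e-05, hold 18 of the 20 control peaks (65.5% of the whole list) and 9 of the 21 Dox peaks (56.1%). Within these stricter lists 6 of 18 control peaks of the genes were unmatched, against 24% of all, and 0 of 9 Dox peaks, against 22.3%. When only peaks with a log10 FDR at or below -5 were kept in either list, 4 of 18 control peaks (21% of all) and 0 of 11 Dox peaks (22.3% of all) were unmatched.

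**Figure D1:**
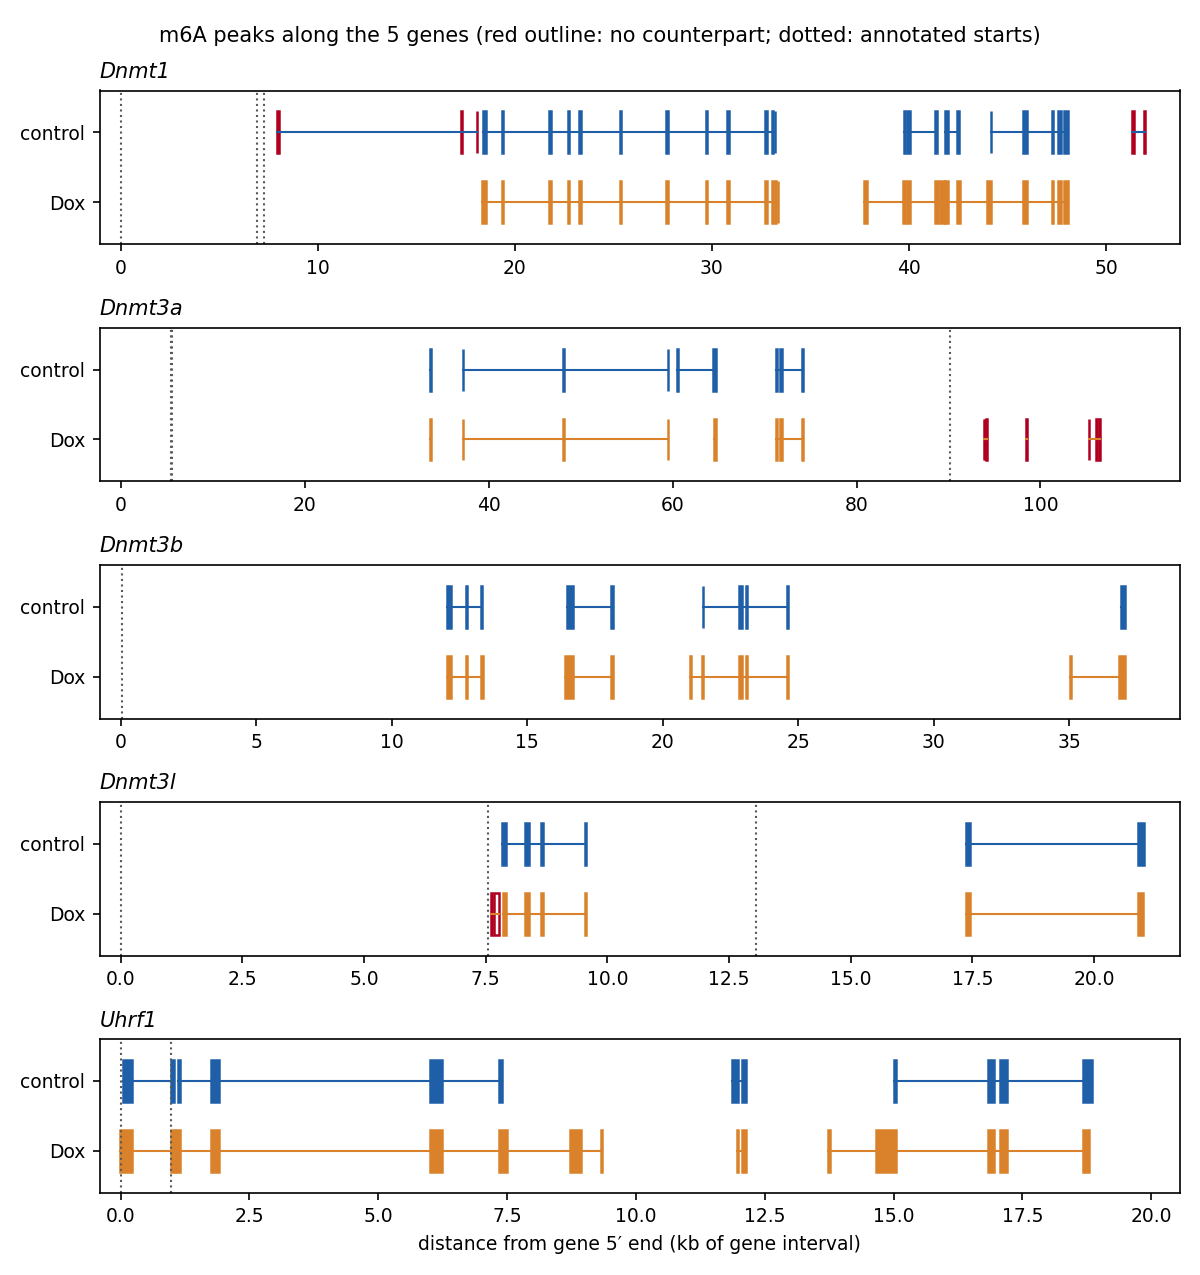
Exonic blocks of every m6A peak along the 5 genes, with distance from the 5′ end of the gene interval in kilobases on each horizontal axis, control peaks in blue above and Dox peaks in orange below. Blocks of 1 peak are joined by a line, red outlines mark peaks with no counterpart in the other list, and dotted lines mark annotated transcript starts; the red outlines lie at both ends of the Dnmt1 peaks in control, downstream of the last start of Dnmt3a in Dox, and beside the second start of Dnmt3l in Dox.

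Dnmt1 (ENSMUSG00000004099.15), the maintenance methyltransferase gene, occupies 20907206 to 20959888 of chromosome 9, minus strand. By p, it carried the best supported peak among the 5 genes in both conditions, in the middle of its gene interval. By fold, peaks of Dnmt3a in both lists and of Uhrf1 in Dox were higher. The control peak joined 12 exonic blocks with 778 nt of exonic sequence (20926685 to 20941500). Its IP over input fold, the authors' own value for a peak, was 14.2 and its log10 p -1990, rank 63 of all 25815 control peaks by p. The Dox peak covered all 778 of these nucleotides and reached further, with 13 blocks and 927 nt (20926520 to 20941560), a fold of 6.55 and a log10 p of -932, rank 58 of the 27612 Dox peaks. The site was thus among the best supported of either list, with a lower fold in the Dox list (log2 ratio -1.12). Over all 20832 control peaks with a Dox counterpart the median log2 ratio was -0.24, with quartiles of -0.82 and 0.27.

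Towards the 3′ end of Dnmt1, 3 separate control peaks fell under a single Dox peak. These control peaks lay at 20918467 to 20920146 (fold 2.65), 20917367 to 20918041 (fold 2.15) and 20911816 to 20915742 (fold 4.56), with log10 FDRs of -50.6, -51.4 and -228. The Dox peak ran from 20911845 to 20922171 over 12 exonic blocks and 1824 nt, with a fold of 3.32 at a log10 FDR of -143. It shared 270, 240 and 599 nt with them. In the whole Dox list 8.18% of peaks overlapped 2 or more control peaks, and 2 of the 21 Dox peaks of the 5 genes did, this one and 1 in Uhrf1. No control peak of the 5 genes overlapped 2 or more Dox peaks (4.93% of all control peaks did). Of the 6 Dnmt1 control peaks, 4 thus correspond to the 2 Dox peaks of the gene.

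The outermost Dnmt1 control peaks on either side were the ones with no counterpart. The one nearest the 5′ end (20941794 to 20951976) had 3 exonic blocks with 181 nt, a fold of 2.22 at a log10 FDR of -10.5. Its first base lay 647 nt downstream of the last of the 3 annotated starts, and its other end was 233 nt from the nearest Dox peak of the gene. The one nearest the 3′ end (20907903 to 20908593) had 181 nt in 2 blocks, a fold of 2.26 at a log10 FDR of -33.7, and lay 3251 nt from the nearest Dox peak. It is the more unusual of the pair, since only 122 of 8944 control peaks at or below a log10 FDR of -20 (1.36%) were unmatched, and it was 1 of 13 such peaks in the 5 genes. Between log10 FDRs of -20 and -5, where the 5′ peak falls, 14.8% of all control peaks lacked one. Both unmatched peaks are also in the authors' stricter control list.

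Uhrf1 (ENSMUSG00000001228.14; chromosome 17, plus strand, 56303337 to 56323486) encodes the protein that brings DNMT1 to hemimethylated DNA. Alone among the 5 genes, it had peaks that reached into the window around an annotated transcript start. Windows of RefSeq (GRCm38.p6) from 250 bases before to 50 bases after each of its 2 starts are shown because both lists called m6A enrichment inside them. They lie at chr17:56303087-56303386 and chr17:56304063-56304362 on the plus strand, and capitals mark the bases under a peak of either list.
Uhrf1 first start: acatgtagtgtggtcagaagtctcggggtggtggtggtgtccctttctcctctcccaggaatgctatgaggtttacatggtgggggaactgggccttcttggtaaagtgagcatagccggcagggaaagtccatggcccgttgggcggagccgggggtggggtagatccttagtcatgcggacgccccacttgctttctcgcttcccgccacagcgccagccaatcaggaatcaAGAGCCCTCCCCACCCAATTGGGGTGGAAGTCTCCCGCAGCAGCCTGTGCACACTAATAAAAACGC
Uhrf1 second start: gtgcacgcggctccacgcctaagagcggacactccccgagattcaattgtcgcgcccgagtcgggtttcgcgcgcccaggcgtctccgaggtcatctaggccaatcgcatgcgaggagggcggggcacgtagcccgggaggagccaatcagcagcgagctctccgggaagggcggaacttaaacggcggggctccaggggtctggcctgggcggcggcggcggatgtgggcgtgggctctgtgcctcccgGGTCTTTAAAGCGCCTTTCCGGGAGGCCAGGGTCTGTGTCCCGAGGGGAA

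In the first window the Dox peak covered 66 bases, beginning 16 nt before the start, and the control peak covered 6. In the second window both peaks covered the 50 bases after the start, and the second block of the control peak began at the start itself, 56304313. At the first start the control list had a peak of 241 nt from 56303381 to 56304372, with a fold of 3.00 at a log10 FDR of -36.2. Next to it was a peak of 511 nt from 56304445 to 56310739, with a fold of 3.34 and an FDR listed as 0 (log10 p -400). In the Dox list a single peak of 8 blocks and 1200 nt, from 56303321 to 56312678, covered all nucleotides of both. Its fold was 13.0, its FDR was listed as 0 and its log10 p was -456, rank 207 of the Dox list. Set against the 2 control peaks it spans, the log2 ratios of the folds were 2.12 and 1.96. Both lie above the upper quartile of all shared peaks (0.27), and since both use 1 Dox value they are not independent. The Dox peak also holds exonic sequence under neither control peak, such as the block from 56312054 to 56312269. Its fold and those of the control peaks thus describe unlike stretches. The fold of 13.0 equals 12 of the whole steps found among Dox folds (described under Dnmt3a). Steps were sought only among peaks with a log10 FDR above -8, so how common they are among well supported peaks like this was not examined.

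The folds of the other Uhrf1 peaks differed less between the lists. The peak from 56315201 to 56315464 in control (fold 1.89, log10 FDR -52.9) overlapped a Dox peak from 56315291 to 56315464 (fold 1.25, log10 FDR -7.25), and neither is in the authors' stricter lists. The peak nearest the 3′ end ran from 56318336 to 56322181 in control, with 481 nt and a fold of 3.15, and from 56317066 to 56322121 in Dox, with 811 nt and a fold of 3.51. FDRs of 0 were listed for both. In all, 3 of 20 control peaks and 3 of 21 Dox peaks of the 5 genes had an FDR listed as 0, all in Dnmt1 and Uhrf1, against 3.44% and 1.34% of the whole lists. No peak of the 3 Dnmt3 genes had an FDR listed as 0, though the best of Dnmt3b passed several Dnmt1 and Uhrf1 peaks in support. A p depends on the number of reads, so this does not rank the transcripts by m6A.

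**Figure D2:**
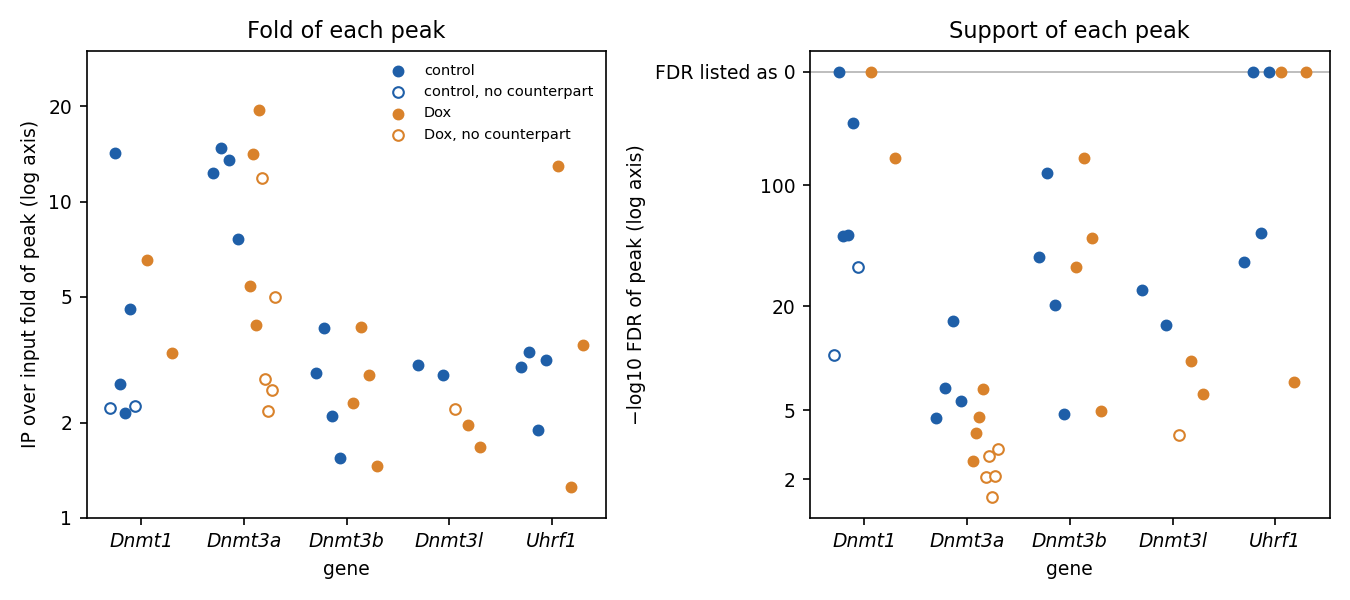
Fold of each peak (left, IP over input, log axis) and its support (right, −log10 FDR, log axis) by gene, in order from 5′ to 3′, control in blue and Dox in orange, with open symbols for peaks without a counterpart and the grey line for an FDR listed as 0. Dnmt3a has high folds, up to 14.8 in control and 19.5 in Dox, most with weak support. Its control peak with a fold of 13.5 has a log10 FDR of -16.4. The open Dox symbols all lie above a log10 FDR of -5.

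Dnmt3a (ENSMUSG00000020661.15), a de novo methyltransferase gene, occupies 3801559 to 3914443 of chromosome 12, plus strand. Transcripts start at 3806980, at 3807160 and, much further along, at 3891744 in RefSeq. The last start is that of a shorter form known as Dnmt3a2, the main form of embryonic stem cells, and exons downstream of it are common to the long and the short form. This start is shown because it divides the Dnmt3a peaks. The window is chr12:3891494-3891793 on the plus strand, with capitals from the start on, and no peak of either list reached into it.
Dnmt3a last start: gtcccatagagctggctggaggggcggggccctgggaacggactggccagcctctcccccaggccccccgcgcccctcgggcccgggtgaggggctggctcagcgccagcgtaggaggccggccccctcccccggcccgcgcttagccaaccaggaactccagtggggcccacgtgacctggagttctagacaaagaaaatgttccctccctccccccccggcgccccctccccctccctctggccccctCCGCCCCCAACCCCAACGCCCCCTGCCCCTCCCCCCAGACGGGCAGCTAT

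All 4 control peaks of Dnmt3a lay upstream of this last start, between 3835170 and 3875689. The Dox list had 9 peaks. Of these, 4 lay upstream and overlapped the 4 control peaks, 2 of them with identical exonic blocks (6.90% of all control peaks had an identical Dox peak). The other 5 lay downstream of the last start, between 3895369 and 3907996, and none overlapped a control peak. They began 3625 to 16133 nt past that start and were at least 19679 nt from the nearest control peak of the gene. Their folds were 11.9, 2.75, 2.17, 2.53 and 4.99 in order along the gene, with log10 FDRs between -1.59 and -2.98. None is in the authors' stricter list, and none passes a log10 FDR of -5. Of all Dox peaks with a log10 FDR above -5, 52.1% lacked a control counterpart. Depth and transcript level in either condition are unknown, and their part in these calls was not tested.

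The folds of the shared Dnmt3a peaks moved in both directions. At 3835170 the fold was 12.3 in control and 5.42 in the overlapping Dox peak. At 3838768 to 3861079 it was 14.8 and 14.1, with the same 3 blocks. At 3862048 to 3866293 a control peak with a fold of 13.5 at a log10 FDR of -16.4, the best supported of the gene, overlapped a Dox peak on 271 nt with a fold of 4.07 at a log10 FDR of -4.58. At 3872843 to 3875689 the fold was 7.63 in control and 19.5 in Dox, rank 152 of the Dox list by fold, with log10 FDRs of -5.64 and -6.63. Of the 4, 3 had a lower and 1 a higher fold in Dox. In the authors' stricter lists only the 2 sites furthest downstream of these 4 had a peak in both conditions.

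High Dnmt3a folds come in steps. Folds between 8 and 40 of peaks with a log10 FDR above -8 were whole multiples of 1.23 in 77.3% of 2628 control peaks and of 1.0845 in 80.4% of 1891 Dox peaks, within rounding to the digits given. The control folds of 12.3, 14.8 and 13.5 are 10, 12 and 11 such steps, and 5 of the 9 Dox folds are whole steps too, the 19.5 being 18 steps and the 11.9 being 11. No other peak of the 5 genes lay on a whole step apart from the Uhrf1 Dox peak with a fold of 13.0. Differences between Dnmt3a folds on such steps therefore rest on coarse values. The control peak with the fold of 13.5 has a log10 FDR of -16.4, outside the range in which steps were sought.

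Dnmt3b (ENSMUSG00000027478.15), the other de novo methyltransferase gene, occupies 153649411 to 153687730 of chromosome 2, plus strand. Its peaks were the most alike between the conditions. There were 4 in each list, and every control nucleotide was also under a Dox peak. From 5′ to 3′ the control folds were 2.88, 3.97, 2.1 and 1.55, and the Dox folds 2.30, 4.02, 2.82 and 1.46. The log2 ratios of -0.32, 0.02, 0.43 and -0.09 lay on both sides of 0. That of 0.43, at the third site, was above the upper quartile of all shared peaks (0.27). The best supported site, at 153665865 to 153667566 in control, had a log10 FDR of -117, and the Dox peak there one of -143. The third site, at 153670899 to 153674021 in control, had 1 more block on its 5′ side in Dox, with 329 nt against 210. The peak nearest the 3′ end (153686327 to 153686476 in control) was weak in both lists, with log10 FDRs of -4.76 and -4.93.

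Dnmt3l (ENSMUSG00000000730.13), the gene of the inactive cofactor, occupies 78042287 to 78063622 of chromosome 10, plus strand. Both of its control peaks had a Dox counterpart of lower fold, and the Dox list held 1 further peak. At 78050119 to 78051853 the control fold was 3.04 (log10 FDR -24.8) and the Dox fold 1.97 (log10 FDR -9.67). At 78059660 to 78063323 the control fold was 2.82 (log10 FDR -15.5) and the Dox fold 1.67 (log10 FDR -6.22). The log2 ratios, -0.63 and -0.76, lie between the lower quartile and the median of all shared peaks. Both Dox counterparts had folds under 2. The authors' stricter Dox list held no Dnmt3l peak, while the stricter control list held both control peaks.

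The further Dox peak of Dnmt3l lay just downstream of the second of its 3 annotated starts. It spanned 78049893 to 78050060, in 2 blocks with 121 nt, with a fold of 2.21 at a log10 FDR of -3.63. Its first base lay 51 nt past the start at 78049842. It was 58 nt from the nearest control peak, which also follows this start. The window of this start, chr10:78049592-78049891 on the plus strand, is shown because the peak begins just past its end, and capitals mark the bases from the start on.
Dnmt3l second start: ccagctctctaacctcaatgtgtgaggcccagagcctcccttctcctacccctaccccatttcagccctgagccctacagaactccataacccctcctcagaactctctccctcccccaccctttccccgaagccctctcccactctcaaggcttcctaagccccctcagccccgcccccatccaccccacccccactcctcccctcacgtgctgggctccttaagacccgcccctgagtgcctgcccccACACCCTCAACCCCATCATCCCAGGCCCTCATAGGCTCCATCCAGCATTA

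The start windows were searched for GGACT, a frequent form of the m6A consensus, on the transcript strand and for its reverse complement AGTCC. Of the 12 windows of the 5 genes, GGACT was found on the transcript strand in 2, the last start of Dnmt3a and the third of Dnmt3l, both before the start. AGTCC was found in 2, the first starts of Dnmt1 and Uhrf1. Over all 32851 windows the shares were 26.1% and 25.97%. A match is a description of the letters only, and the peak sequences beyond these windows were not used here.

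Set side by side, the 5 genes had more exonic sequence under Dox than under control peaks. The lengths in control and Dox were 2278 and 2751 nt for Dnmt1, 964 and 1418 for Dnmt3a, and 930 and 1257 for Dnmt3b. For Dnmt3l they were 450 and 511 nt, and for Uhrf1 1414 and 2102. Of all genes with peaks in both lists 65.8% had more under Dox peaks, so the direction is the common one. The median exonic width of single peaks was 240 nt in control and 211 nt in Dox for the 5 genes, while over all peaks it was 211 and 240 nt. When only peaks at or below a log10 FDR of -5 were kept, 3 of the 5 genes had more under Dox peaks, against 65% of all genes. The share of all covered nucleotides that both lists had in common was 74.0% for Dnmt3b, 68.3% for Dnmt3l, 60.1% for Dnmt1, 56.1% for Uhrf1 and 54.9% for Dnmt3a. Over 10481 genes the median share was 59.2%, with quartiles of 41.1% and 75.3%, and all 5 genes lay between these quartiles.

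**Figure D3:**
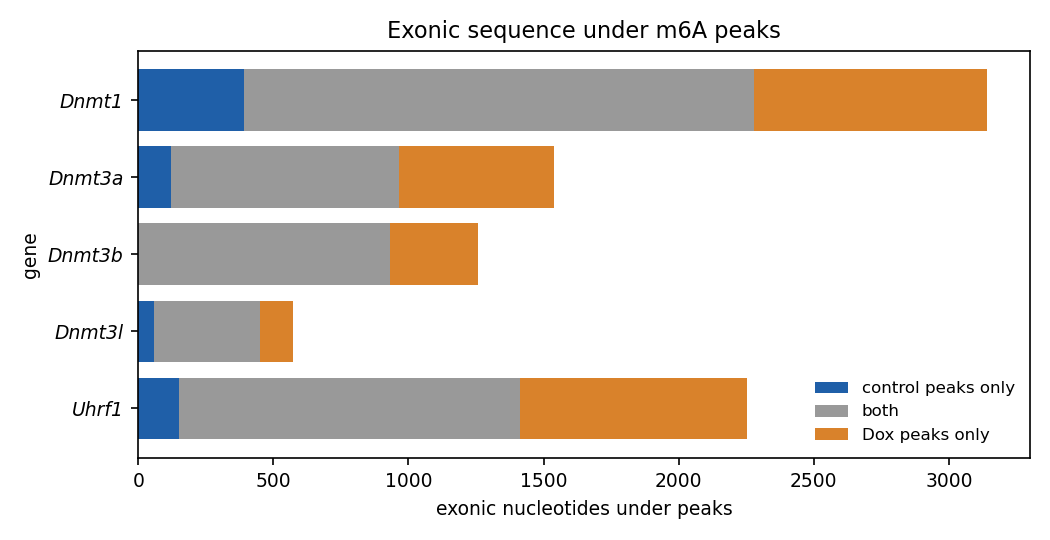
Exonic nucleotides under m6A peaks of each gene (horizontal axis), split into those under control peaks only (blue), under peaks of both lists (grey) and under Dox peaks only (orange). The blue part is absent for Dnmt3b, and in each gene the orange part, from 121 nt for Dnmt3l to 864 nt for Dnmt1, is longer than the blue one.

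Among the 18 control peaks with a counterpart, 8 had a higher and 10 a lower fold in the Dox list, where 37.5% of all shared control peaks had a higher one. The median log2 ratio was -0.08, against -0.24 over all shared peaks. The 18 ratios are not independent, since 1 Dnmt1 Dox peak enters 3 of them and 1 Uhrf1 Dox peak enters 2. Both of these Dox peaks also cover exonic sequence outside the control peaks they are set against. In the authors' stricter lists the median for the 5 genes turned to 0.24, while that over all shared peaks was -0.33. Uhrf1 held the largest positive ratios and Dnmt3a the lowest. The median fold of the genes' peaks was 3.02 in control and 3.32 in Dox, while over all peaks it was 4.62 and 3.51. Their median log10 FDRs were -34.95 and -6.22, against -8.75 and -6.42 over all peaks.

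**Figure D4:**
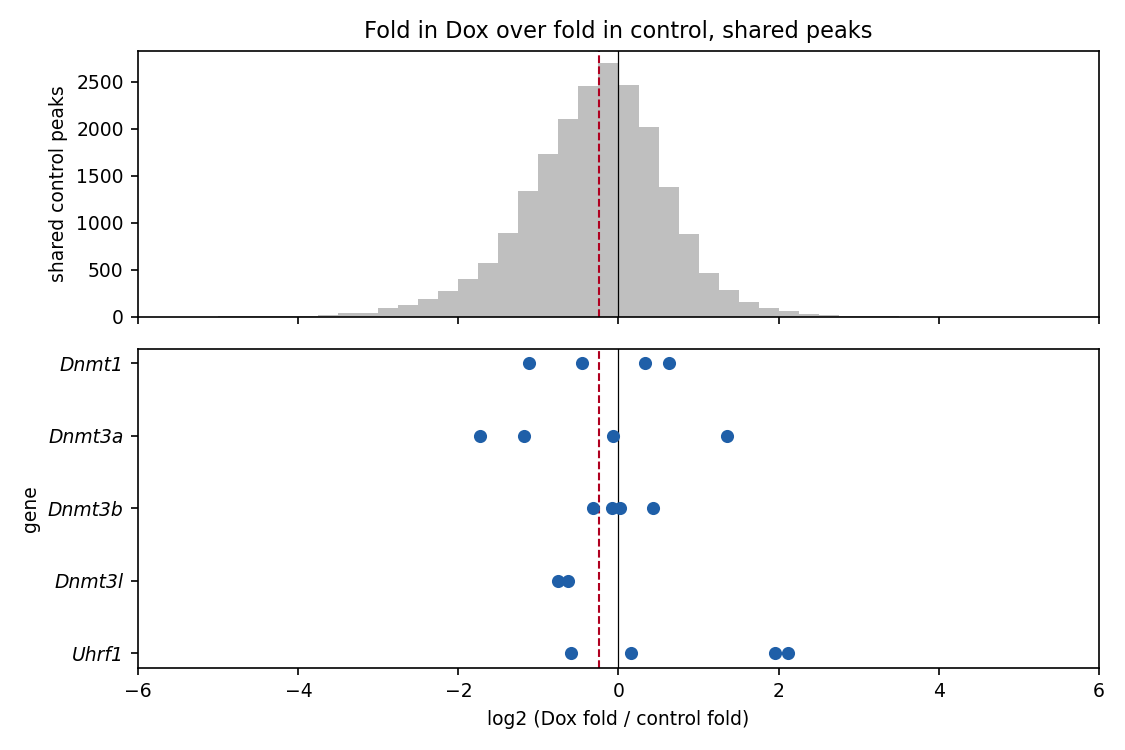
Log2 of the Dox fold over the control fold (horizontal axis) for all 20832 shared control peaks (grey histogram, above) and for each shared control peak of the 5 genes (points, below), with the median of all shared peaks as a dashed red line and 0 as a black line. The pair of points above 1.9 are the Uhrf1 peaks joined in 1 Dox peak. The Dnmt3b points lie between -0.32 and 0.43, and both Dnmt3l points lie left of the median.

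Other genes of DNA methylation and H3K36 methylation, 33 in a list of regulators, readers and erasers, served for comparison. Of these, 32 could be tied to an identifier with peaks. Peaks in both lists were found for 31 of the 32, and for 79.9% of all identifiers with a peak. Of their 112 control peaks 21 (18.8%) lacked a Dox counterpart, and of their 111 Dox peaks 27 (24.3%) lacked a control one, close to the 19.3% and 29.1% of all peaks. These counts include the targeted gene Setd2, of which 5 of 10 control peaks and 1 of 6 Dox peaks were unmatched. The gene with peaks in 1 list only was Prdm14, a repressor of Dnmt3b and Dnmt3l, with 2 Dox peaks (highest fold 2.16, log10 FDR -10.1) and none in control. The corepressor gene Trim28, with 3 control peaks and 1 Dox peak of which none overlapped, was chosen after its values were seen. Of 10481 genes with peaks in both lists, 478 had less than 5% of their covered nucleotides in common. The highest control folds at a log10 FDR at or below -5 were those of Mbd3, a subunit of the NuRD corepressor (28.3), Zbtb4, a methyl-DNA binding zinc finger gene (25.8), and the H3K9 methyltransferase gene Ehmt2 (23.4). The cytosine dioxygenase gene Tet3 (20.9), the methyl-CpG binding gene Mbd2 (14.8) and the replication clamp gene Pcna (13.5) followed. Their highest Dox folds were 4.51, 24.9, 5.23, 27.1, 14.1 and 4.70, of which the Mbd2 value has a log10 FDR of -2.59 and would not pass the limit set for the control folds. Each of these 6 genes was chosen for its control fold, so a lower Dox value may follow from the choice. Within rounding, all 6 control folds are whole multiples of 1.23, and the Dox folds of Zbtb4, Tet3 and Mbd2 are whole multiples of 1.0845. The order of genes with close folds may thus rest on coarse values. Steps were sought only among peaks with a log10 FDR above -8. The control peaks of Mbd3 (-218), Ehmt2 (-94.6), Pcna (-22.8) and Tet3 (-15.8) lie outside that range. A step of 1.23 is small beside the differences between the lists for Mbd3 (28.3 and 4.51) and Ehmt2 (23.4 and 5.23).

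By number of peaks and highest fold in both lists, the genes most like each of the 5 were found among 8794 named genes by Euclidean distance on the log2 scale. For Dnmt1 they were Prpf40b (distance 0.09) and Wdr91 (0.17), each with 6 control and 2 Dox peaks. For Dnmt3b they were Glyr1 (0.06) and Xpo5 (0.18), each with 4 and 4 peaks. For Dnmt3l they were Mbd5 (0.17) and Acaa1a (0.22), each with 2 and 3. Uhrf1 and Dnmt3a had no neighbour as close: AA986860 (0.45) and Fam133b (0.48) came nearest to Uhrf1, and Cep350 (0.56) and Palb2 (0.61) to Dnmt3a. The likeness rests on 4 values per gene from 2 lists.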

How the data were processed

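m6A sequencing was done on 8 libraries in 4 groups of 2 replicates (IP and input, control and Dox), and the labels tie each deposited list to all 4 libraries of a condition. TopHat2 2.1.1, FastQC 0.11.5 and mm10 are listed, without their roles, per the submitters' processing notes. File names credit the peaks to exomePeak, whose version, settings and annotation, like the scaling of IP against input, are not given in the sources used. The deposited fold is headed only as a fold enrichment, and it is read here as the ratio of IP to input in each peak. Each peak also has a p-value and the log10 of its p and FDR, deposited as scores. An FDR of 0 has no log10 value and is printed as listed. The shorter deposited lists were checked to hold exactly the peaks of the tables with fold 2 or more and p no higher than 1e-05.

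Overlaps were computed over exonic blocks on the same strand (at least 1 nt). On 300 simulated peaks per list they had 0 errors. A control peak was paired with the Dox peak that shares most nucleotides. Identifiers were named after the protein-coding RefSeq gene (GRCm38.p6) on their strand that held most, and at least 50%, of their peak midpoints, which named 10679 of 13110 identifiers (81.5%). Coordinates are 1-based mm10 positions. No peak of another identifier overlapped the intervals of the 5 genes. Binomial intervals (95%, Clopper-Pearson) cover counting error only.

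The genes, lists and rules were chosen with earlier results of these data known. The text names all peaks of the 5 genes. Of 33 genes in a list of DNA methylation regulators it names those with peaks in 1 condition only and the 6 with the highest control fold among peaks with log10 FDR at or below -5. It also names the 2 nearest genes of each member, without Gm or Rik names. From the list of 33, Setd2 is also named as the targeted gene, and Trim28 was added after its values were seen. Alternatives were the stricter lists, limits on FDR and fold, and an overlap of 50% or more of the shorter peak. Calculations used Python 3.11.15, numpy 2.4.6, pandas 2.3.3, scipy 1.17.1 and matplotlib 3.10.9.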

Additional observations from a re-analysis of the deposited data

How the results depend on the processing

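No paired analysis was possible because the lists pool the replicates of a condition, and for the same reason no replicate could be left out. The counts of the 5 genes (20 control and 21 Dox peaks, of which 2 and 6 without a counterpart) depended on the peak threshold. In the authors' stricter lists there were 9 Dox peaks, with 6 control and 0 Dox peaks unmatched (24% and 22.3% of all peaks), and the median log2 ratio of shared peaks turned to 0.24. With log10 FDR at or below -5 in both lists there were 11 Dox peaks, 4 and 0 unmatched (21% and 22.3% of all), and the median turned to 0.087. Control peaks numbered 18 in both of these settings. At a fold of at least 4 in both lists there were 6 control and 9 Dox peaks, 1 and 4 unmatched (45.7% and 31.6% of all), with a median of -1.12. Dox peaks passing this FDR limit, set against all control peaks, left 0 unmatched (11.6% of all), and such control peaks left 2 (7.56% of all). Requiring 50% of the shorter peak as overlap was tried on the full lists only. It left the unmatched counts of the 5 genes at 2 and 6 and their median log2 ratio at -0.08. Genes with more exonic sequence under Dox peaks numbered 3 of 4 with peaks in both stricter lists, 3 of 5 at the FDR limit and 1 of 2 at the fold limit, against 63.3%, 65% and 50.7% of all genes, settings chosen for this count after the data were seen. By gene, the median log2 ratio of Dnmt3b turned from -0.034 to 0.018 in the stricter lists and at the FDR limit, and that of Dnmt3a from -0.63 to 1.35 at the FDR limit, where 1 shared site was left. Fewer peaks enter each of these settings. Read depth is unknown, so what it limits could not be measured.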
